A study of Mus musculus with 7 samples.

Results

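The subject is a set of 9 mouse genes of the complement system, chosen by name: C1qa, C1qb and C1qc, which encode the chains of C1q; the central components C3 and C4b; C3ar1, a receptor; Cfb and Cfp of the alternative pathway; and Serping1, an inhibitor. Of these, 7 had a probe set of their own among the 18193 genes measured. C3 is not analysed here. The probe set annotated to C4b also carries C4a, so neither gene was given a value.

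The RNA came from the plantaris, a calf muscle, of male and female mice aged 4 months with the genotype Pax7-DTA, bred from the parental strains Pax7-CreER and Rosa26-DTA. Vehicle-treated animals have the same genotype. Tamoxifen activates a Cre recombinase made under Pax7 control and so turns on diphtheria toxin in cells that express Pax7, the muscle stem cells (satellite cells). Overload followed synergist ablation, the surgical removal of neighbouring calf muscles that act with it, and lasted 1 week. The groups were tamoxifen with overload (n = 3, of which 1 female and 2 male), vehicle with overload (n = 2, 1 female and 1 male), tamoxifen with sham surgery (n = 1, male) and vehicle with sham surgery (n = 1, male). The titles describe single mice whereas the design text speaks of pooled muscle and 11 animals, so the number of animals behind an array is uncertain, and p-values measure the spread between these arrays alone.

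Complement is a cascade of mostly secreted proteins that tags cells, debris and microbes for uptake. C1q binds such targets and, with the proteases C1r and C1s, starts the classical pathway. Factor B and properdin drive the alternative pathway, which amplifies the deposition of C3, and released fragments of C3 signal through a receptor on myeloid cells. Liver makes most circulating complement, while C1q is made largely by macrophages, which enter muscle after injury or overload.

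Values are scaled signal intensities, on which every array has the same trimmed mean of 500. A signal of 53.6 (log2 5.77) served as the background level. Array medians lay between 88.2 and 127.7, and the 3'/5' signal ratios were 0.81 to 0.91 for Gapdh and 1.10 to 1.20 for actin, both highest for tamoxifen overload replicate 2. Pax7 had signals of 57.9, 10.0 and 120.4 on the tamoxifen overload arrays, against 273.8 and 348.8 on the vehicle overload arrays, and 41.2 on the tamoxifen sham array, against 92.8 on the vehicle sham array. All 8 skeletal muscle fibre markers were above background on every array. Differences are on the log2(signal + 1) scale, from a limma model with terms for group and sex, and a gene was called at an adjusted p under 0.05 over all 18193 genes.

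All 7 complement genes measured were higher in overloaded than in sham-operated muscle, by 1.63-fold to 5.72-fold, and each passed the test (limma, adjusted p from 0.000158 to 0.00796). Over all genes 14.7% were called higher. The median log2 difference of the 7 genes was 1.98, against 0.067 over all genes. Each of the 7 had all 5 overload arrays above both sham arrays, which held for 23.1% of all genes. All were above background on every array, so none depended on a bound.

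**Figure D1:**
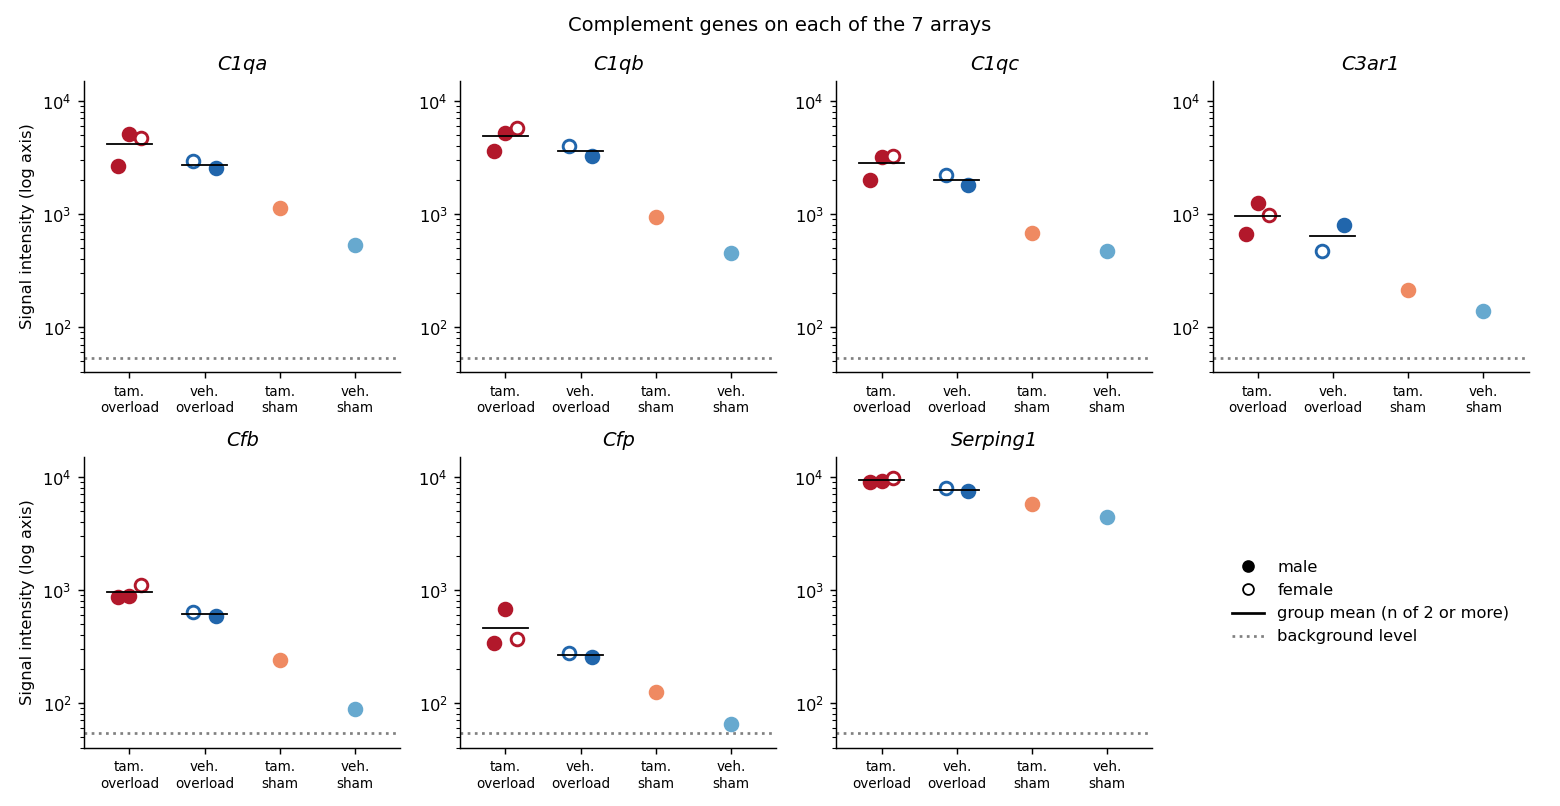
Signal intensity (log axis) of the leading probe set of each complement gene on the 7 arrays, by group. Filled points are males, open points females, bars are means of groups with more than 1 array, and the dotted line is the background level of 53.6. In every panel the 5 overload arrays stand above both sham arrays, and the tamoxifen sham array stands above the vehicle sham array.

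The 3 chains of C1q, which assemble into the recognition molecule of the classical pathway, all rose. C1qa had signals of 2636, 5104 and 4698 on the tamoxifen overload arrays and 2932 and 2545 on the vehicle overload arrays, against 1133 on the tamoxifen sham array and 536 on the vehicle sham array. C1qb had 3571, 5225 and 5812 with tamoxifen and overload and 3998 and 3264 with vehicle and overload, against 945 in tamoxifen sham and 448 in vehicle sham. C1qc had 1981, 3199 and 3278 with tamoxifen and overload and 2210 and 1810 with vehicle and overload, against 686 in tamoxifen sham and 472 in vehicle sham. On the leading probe set of each chain, tamoxifen overload replicates 2 and 3 were the highest arrays, and replicate 1 lay among the vehicle overload arrays. The log2 rises with overload were 1.96 ± 0.26 for C1qa, 2.52 ± 0.18 for C1qb and 1.90 ± 0.21 for C1qc (SE; 5 overload against 2 sham arrays; limma adjusted p = 0.00168, 0.000158 and 0.00081). In fold terms these are 3.89, 5.72 and 3.73.

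C1qb, C1qc and C1qa lie next to each other on chromosome 4, in that order and with 0 annotated genes between neighbours in the RefSeq annotation of GRCm38.p6. Because these neighbours all rose, the 250 bases before the annotated starts of C1qb and C1qc are shown. They are from RefSeq, build GRCm38.p6, on the minus strand and in the direction of transcription. Capitals mark matches to any of 7 motifs searched on both strands over windows of 300 bases: PU.1 (GAGGAAGT), ISRE (TTTC, any 2 bases, TTTC), GAS (TTCNNNGAA), NF-kB (GGGNNTTCC), C/EBP (TTGCNNAA), AP-1 (TGANTCA) and E-box (CAGCTG).
C1qb promoter, chr4:136886201-136886450: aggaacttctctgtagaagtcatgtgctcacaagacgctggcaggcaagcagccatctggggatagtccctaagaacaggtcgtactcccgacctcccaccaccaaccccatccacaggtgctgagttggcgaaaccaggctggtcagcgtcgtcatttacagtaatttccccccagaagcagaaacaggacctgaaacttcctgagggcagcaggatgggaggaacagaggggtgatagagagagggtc
C1qc promoter, chr4:136892915-136893164: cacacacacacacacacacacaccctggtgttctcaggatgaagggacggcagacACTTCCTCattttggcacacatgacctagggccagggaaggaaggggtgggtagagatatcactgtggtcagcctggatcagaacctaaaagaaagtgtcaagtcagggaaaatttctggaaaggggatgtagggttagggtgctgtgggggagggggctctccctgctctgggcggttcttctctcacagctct
The C1qc window held 1 match, to the PU.1 letters on the opposite strand, starting at base -195 from the start. The PU.1 letters occur in 3.20% of the 32851 promoter windows in the table. No letters of the 7 motifs were found in the C1qb window, which says only that they are not in these bases. A match describes the sequence and is not a binding site. Promoter windows were available for 4 of the 7 genes, C1qb, C1qc, C3ar1 and Cfp.

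C3ar1 encodes the receptor for the signalling fragment of C3, found mainly on myeloid cells. Its signals were 671, 1254 and 978 on the tamoxifen overload arrays and 469 and 800 on the vehicle overload arrays, against 213 in tamoxifen sham and 138 in vehicle sham. On this leading probe set the vehicle overload arrays differed from each other more than for the C1q chains, with the male array higher. Another probe set of C3ar1 had 406 and 427 on these arrays. The log2 rise with overload was 2.25 ± 0.31, or 4.77-fold (SE; limma adjusted p = 0.00192). The upstream bases of C3ar1, on the minus strand of the same build, are shown because they hold the other motif match among the genes with a promoter window.
C3ar1 promoter, chr6:122856158-122856407: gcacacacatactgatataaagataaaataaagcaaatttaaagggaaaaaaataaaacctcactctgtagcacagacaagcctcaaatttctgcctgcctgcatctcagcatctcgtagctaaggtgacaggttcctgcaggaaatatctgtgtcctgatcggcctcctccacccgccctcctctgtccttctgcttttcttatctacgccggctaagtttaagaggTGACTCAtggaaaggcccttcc
The match is to the AP-1 letters and starts at base -22. These letters occur in 7.81% of all windows. The Cfp window held no match to any of the 7 motifs.

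Cfb and Cfp belong to the alternative pathway. Factor B, the product of Cfb, supplies the protease of the C3-cleaving enzyme, and properdin, the product of Cfp, stabilises that enzyme. Cfb had signals of 869, 875 and 1103 on the tamoxifen overload arrays and 634 and 591 on the vehicle overload arrays, against 239 in tamoxifen sham and 88.5 in vehicle sham. The overload replicates of Cfb lay close together within each treatment. Its log2 rise with overload was 2.28 ± 0.17, or 4.84-fold (SE; limma adjusted p = 0.000194). Cfp had signals of 337, 673 and 370 on the tamoxifen overload arrays and 277 and 252 on the vehicle overload arrays, against 124 in tamoxifen sham and 64.9 in vehicle sham. Its vehicle sham value stood just above background, and tamoxifen overload replicate 2 stood well above the other arrays of its group. The log2 rise of Cfp was 1.98 ± 0.33, or 3.93-fold (SE; limma adjusted p = 0.00465).

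Serping1 encodes C1 inhibitor, a serpin that blocks C1r and C1s and also enzymes of the kinin and clotting systems. It had signals of 8919, 9160 and 9720 on the tamoxifen overload arrays and 7970 and 7402 on the vehicle overload arrays, against 5759 in tamoxifen sham and 4392 in vehicle sham. The overload arrays of each treatment lay close together. The log2 rise with overload was 0.70 ± 0.13, or 1.63-fold (SE; limma adjusted p = 0.00796). The upper end of its 95% interval, 1.01, lay below the lower ends of the intervals of the other 6 genes, of which the lowest was 1.22 for Cfp. Serping1 was not called after centring each array on its median (0.41, adjusted p = 0.149) or without vehicle overload replicate 2 (0.70, adjusted p = 0.119).

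Where a gene had several probe sets, their agreement could be examined, with all 34945 probe sets of a single gene tested together. Of the 12 probe sets of the 7 genes, 11 were called higher. For C1qb the log2 rise was 2.52 ± 0.18 with the leading probe set and 2.74 ± 0.21 and 1.88 ± 0.27 with the other two (SE). For C3ar1 it was 2.25 ± 0.30 with the leading probe set and 2.65 ± 0.43 and 1.95 ± 0.23 with the other two, and the steepest of these had a vehicle sham signal of 29.6, below background. The exception was the second probe set of Cfp, at 0.34 ± 0.35 (limma adjusted p = 0.567). It had signals of 132, 251 and 160 on the tamoxifen overload arrays and 95.1 and 152 on the vehicle overload arrays, against 125 in tamoxifen sham and 133 in vehicle sham. Its groups overlapped, so the rise of Cfp rests on 1 of its 2 probe sets.

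**Figure D2:**
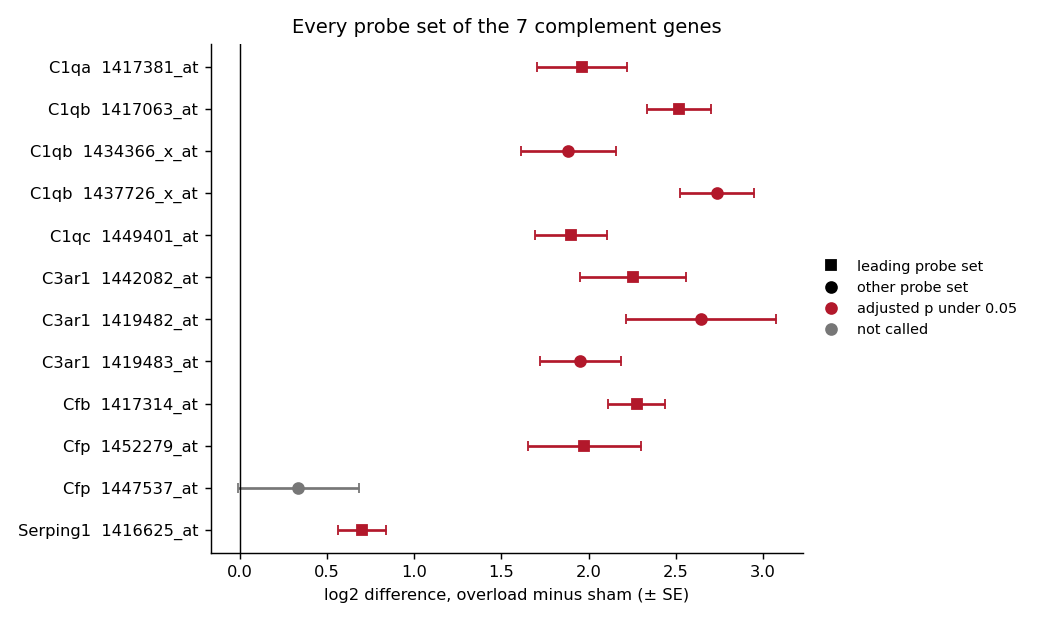
Log2 difference, overload minus sham (x axis, with its SE), for each of the 12 probe sets of the 7 complement genes. Squares are the leading probe sets, circles the others, and red marks an adjusted p under 0.05. The second Cfp probe set, at 0.34, is the point that was not called.

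The rise with overload was then read within each treatment. With tamoxifen (3 overload arrays against 1 sham array) all 7 genes were called higher, where 9.98% of all genes were higher and 4.9% lower, with log2 differences from 0.65 for Serping1 to 2.23 for C3ar1 (limma adjusted p from 0.00177 to 0.0405). With vehicle (2 arrays against 1) all 7 were called higher too, where 6.35% of all genes were higher and 2.44% lower, with differences from 0.75 for Serping1 to 2.82 for C1qb (limma adjusted p from 0.00119 to 0.0467). Each sham side is a single array and was assumed to vary like the overload arrays. Without vehicle overload replicate 2, which leaves only the female array in that group, 2 genes passed with vehicle, C1qb and Cfb. The calls rest on an estimate of spread that follows signal intensity: without that trend 0 of the 7 genes passed for overload against sham (limma adjusted p from 0.0574 to 0.101, with all 7 at an unadjusted p under 0.05), and 0 passed with an ordinary linear model (adjusted p from 0.161 to 0.229, with 6 of 7 at an unadjusted p under 0.05). These 2 settings called 0 genes of the whole array. The females are all in overload groups. In male arrays alone all 7 genes were called for overload against sham, with log2 differences from 0.70 to 2.53.

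**Figure D3:**
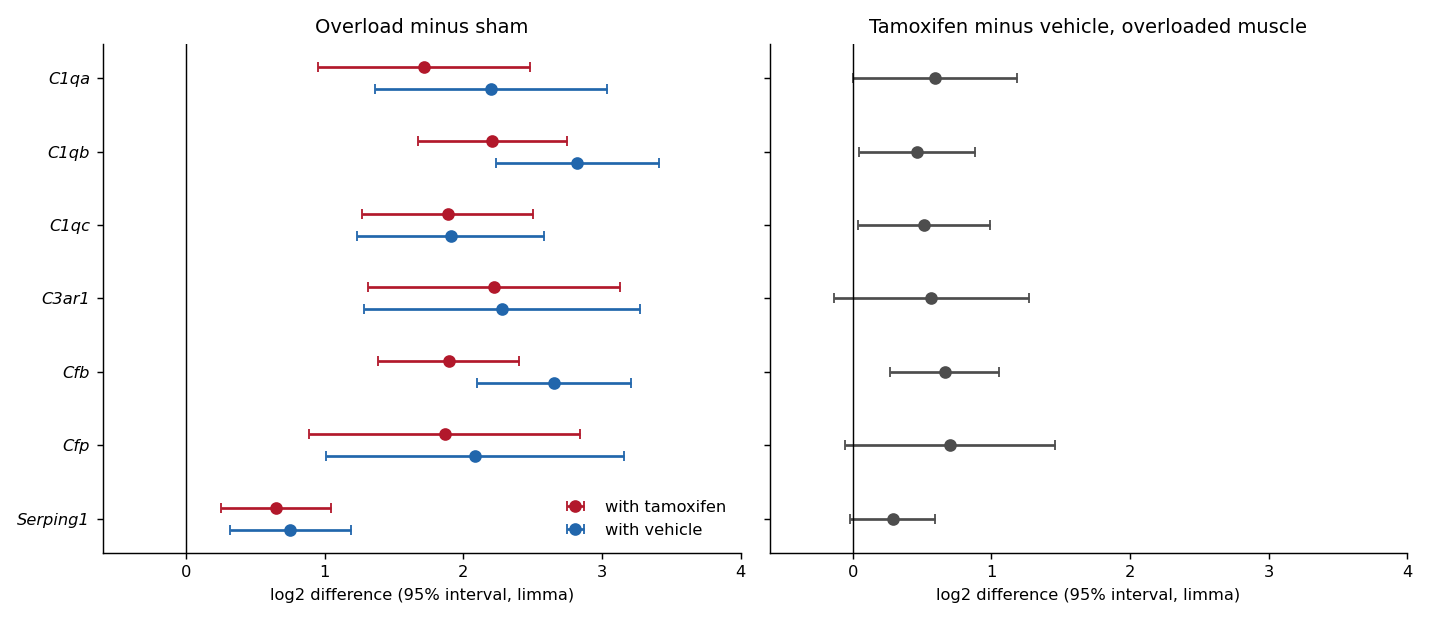
Log2 differences with 95% intervals from limma. The left panel gives overload minus sham with tamoxifen (red, above) and with vehicle (blue, below). The right panel gives tamoxifen minus vehicle in overloaded muscle. Every interval in the left panel lies above 0, and those in the right panel reach from -0.14 to 1.46.

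Tamoxifen and vehicle were compared in overloaded muscle, 3 arrays against 2. The 7 genes had positive log2 differences of 0.29 to 0.70, with a median of 0.57 against 0.028 over all genes, and 0 of 7 were called (limma adjusted p from 0.378 to 0.53, with 4 of 7 at an unadjusted p under 0.05). No gene of the array passed, so the share called was 0%; 1932 genes had an unadjusted p under 0.05. With an ordinary linear model 0 of 7 passed as well, 2 of them at an unadjusted p under 0.05. Cfb averaged 949 ± 133 with tamoxifen (SD, n = 3) and 613 ± 30.7 with vehicle (SD, n = 2), a log2 difference of 0.66 with a 95% interval of 0.27 to 1.06. Serping1 averaged 9266 ± 411 with tamoxifen (SD, n = 3) and 7686 ± 401 with vehicle (SD, n = 2), a log2 difference of 0.29 (95% interval -0.019 to 0.594). Cfp averaged 460 ± 185 with tamoxifen (SD, n = 3) and 265 ± 17.3 with vehicle (SD, n = 2), a log2 difference of 0.70 (95% interval -0.059 to 1.459). For Cfb, Cfp and Serping1 all 3 tamoxifen arrays lay above both vehicle arrays on the leading probe set. Such a separation was seen for 16.9% of all genes. On their leading probe sets the C1q chains and C3ar1 overlapped between treatments, through tamoxifen overload replicate 1. The overlap depended on the probe set. Another probe set of C1qb had 2813 on that replicate, against 2638 and 2381 with vehicle and overload, and did not overlap. Another of C3ar1 had 583, against 449 and 574, and did not overlap. The second Cfp probe set did overlap, with 132 on that replicate against 95.1 and 152. Without tamoxifen overload replicate 1, C1qa was called (0.84, limma adjusted p = 0.0258), as were 227 genes in all. That array was the lowest of its group for C1qa, so leaving it out raised the difference, and the call is not independent support. In the same fit the lowest adjusted p of the 7 genes for overload against sham was 8.33e-09, against 0.000158 with all arrays. Leaving out any other single array gave no call.

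The sham arrays, 1 of each treatment, were set side by side and their difference was not tested. All 7 genes were higher on the tamoxifen sham array than on the vehicle sham array, by 1.31-fold for Serping1 to 2.69-fold for Cfb. The median log2 difference was 0.92, against 0.03 over all genes. For 5 of the 7 genes the ratio was at least 1.5-fold, which held for 18.4% of all genes. Since the overload changes with each treatment are counted from these single arrays, the size of each depends on them. The rise with overload did not pass a test of difference between treatments for any of the 7 genes (interaction, tamoxifen minus vehicle, 0 of 7 called, 1 at an unadjusted p under 0.05; limma adjusted p from 0.842 to 0.999). That gene was Cfb, at -0.76 with a 95% interval of -1.48 to -0.05. The share of all genes called was 0%. The intervals ran from -1.61 to 1.23 across the 7 genes and for 5 of them reached beyond a 2-fold difference between treatments. The interaction of C3ar1 varied with the probe set: -0.06 with the leading one and -1.75 and -0.40 with the others, none of them called. The probe set at -1.75 is the one with a vehicle sham signal below background. Between females and males 0 of 7 genes were called (limma), with 0 at an unadjusted p under 0.05. An ordinary linear model also called 0, with 1 at an unadjusted p under 0.05. The log2 differences of the leading probe sets, female minus male, ran from -0.28 for C3ar1 to 0.37 for C1qb. The other probe sets gave 0.49 and -0.04 for C3ar1 and -0.07 and 0.09 for C1qb. At an adjusted p under 0.05, 0.033% of all genes were called higher and 0.0165% lower in females.

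The other genes of the cascade were taken from a list of 48, of which 37 had a probe set of their own. Of these, 7 rose with overload and 0 fell (14.7% and 8.16% of all genes), with a median log2 difference of 0.24, and 14 were above background on no array. Among 11 initiators and proteases, C1ra and C1s1, the proteases that bind C1q, rose. C1s1 had signals of 2641, 3302 and 3290 on the tamoxifen overload arrays and 2397 and 2025 on the vehicle overload arrays, against 1291 in tamoxifen sham and 936 in vehicle sham. Its log2 rise was 1.16 ± 0.15, and that of C1ra was 1.07 ± 0.15 (SE; limma adjusted p = 0.00152 and 0.00249). The other 4 initiators that were above background on all arrays, C2, Masp1, Fcna and Colec11, named here after their values were seen, lay between 0.25 and 0.34 and were not called. C2 is cut by C1s in the classical pathway, and the other 3 belong to the lectin pathway, the route that starts from sugars.

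Of 8 complement receptors and C1q-binding proteins 5 rose. Vsig4 (0.44), Calr (0.33) and Cr2 (-0.255, above background on no array) were not called. Itgax and Itgam, the alpha chains of complement receptors 4 and 3, rose by 2.18 ± 0.42 and 1.52 ± 0.36, and Itgb2, the beta chain that both share, by 1.93 ± 0.31 (log2, SE; limma adjusted p = 0.00819, 0.0202 and 0.00392). C5ar1, the receptor for the signalling fragment of C5, rose by 1.72 ± 0.36, and Cd93, a surface protein of endothelial and myeloid cells, by 0.78 ± 0.19 (adjusted p = 0.012 and 0.0237). Within each treatment, Itgb2 was called with both. Itgax, Itgam and C5ar1 were called with tamoxifen but not with vehicle, and Cd93 was called with neither. This is not a difference between treatments: vehicle had fewer overload arrays, and the interaction was not called for Itgax, Itgam or C5ar1 (limma adjusted p from 0.978 to 0.997). Itgax and C5ar1 were above background on 1 of the 2 sham arrays: Itgax had a signal of 25.8 in tamoxifen sham and 65.2 in vehicle sham, and C5ar1 50.4 in tamoxifen sham and 54.4 in vehicle sham. The sizes of their rises therefore rest in part on a sham signal that was not above background. Of 12 regulators 0 were called (limma), with 1 at an unadjusted p under 0.05. The 6 of them above background on all arrays, among them the membrane regulators Cd55 (-0.03), Cr1l (0.21) and Cd59a (-0.34) and the fluid-phase regulators Clu (-0.15) and Vtn (-0.43), had a lowest adjusted p of 0.0609; these regulators, like the terminal components and marker genes named next, were picked out after their values were seen. Of 6 terminal components, which form the membrane attack complex, 0 were called (limma), with 2 at an unadjusted p under 0.05. C8g (-0.84, adjusted p = 0.122) was above background on all arrays and the other 5, Hc, C6, C8a, C8b and C9, on none. Between tamoxifen and vehicle in overloaded muscle 0 of the 37 genes were called (limma), with 4 at an unadjusted p under 0.05.

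**Figure D4:**
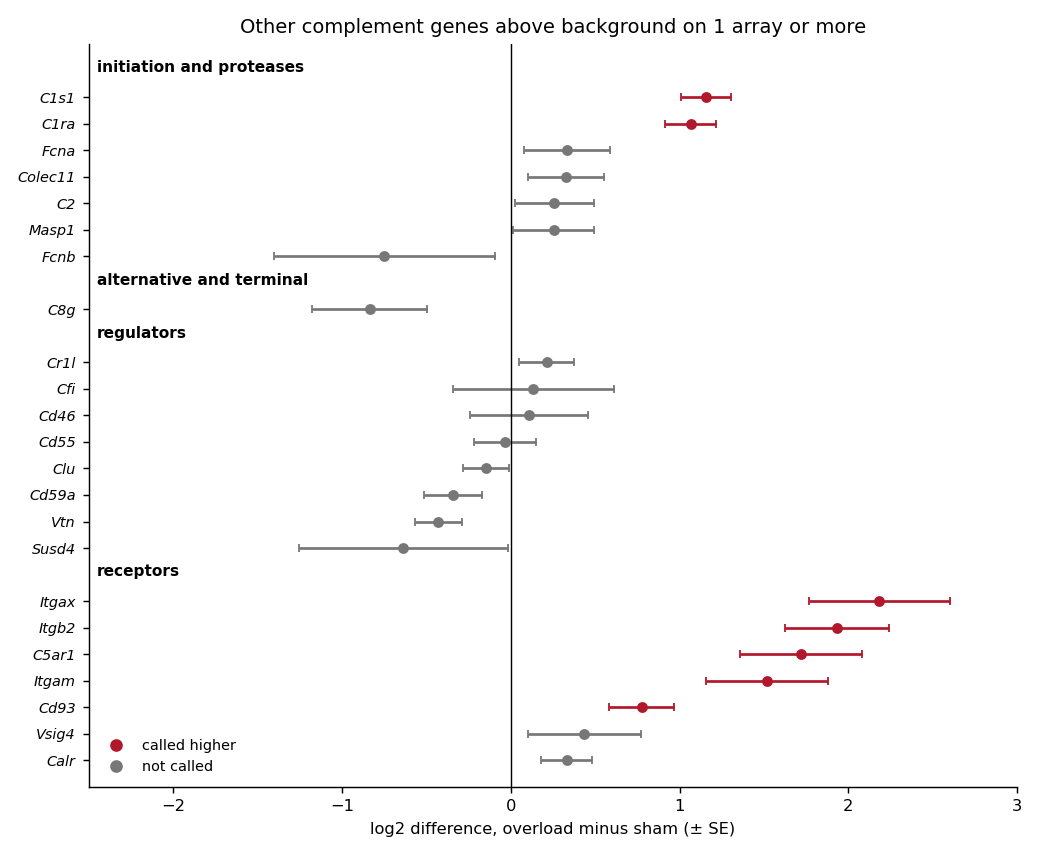
Log2 difference, overload minus sham (x axis, with its SE), for the other complement genes that were above background on 1 array or more, grouped by role. Red marks genes called higher. The 7 red genes are C1s1, C1ra, Itgax, Itgb2, C5ar1, Itgam and Cd93, and no regulator is among them.

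Markers of cell types that make complement were read beside these genes, and their part in the result was not tested. In whole muscle, a change in the number of cells of a type and a change in RNA per cell cannot be told apart. Of 15 macrophage and monocyte markers 14 rose with overload, with a median of 2.74. Their summed signal was 27972 to 47382 on the overload arrays, against 5948 to 10671 on the sham arrays. Csf1r, the receptor that macrophages need to survive, rose by 1.65 and Cd68 by 2.77. The list also holds Ptprc, the common leukocyte antigen, which is not particular to macrophages. Between tamoxifen and vehicle in overloaded muscle the median of the 15 markers was 0.56, against 0.57 for the complement genes. Of the 15, 0 were called (limma), with 7 at an unadjusted p under 0.05. Cd163, the marker not called with overload (0.42), went the other way, at -0.45. Other lists had medians of 1.33 (neutrophil), 0.66 (T, B and natural killer cell), 0.475 (mast cell), 0.35 (endothelial) and 0.22 (fibroblast and fibro-adipogenic progenitor). The rest had 0.05 (adipocyte), -0.14 (hepatocyte), -0.19 (muscle fibre) and -1.22 (satellite cell), and 0 genes were called in each list. An unadjusted p under 0.05 (limma) was reached by 4 of 6 neutrophil and 5 of 6 satellite cell markers, and by 0 or 1 marker in each other list of these cell types. The tamoxifen sham array also had the higher summed macrophage signal of the sham arrays, 10671 against 5948 with vehicle. Array by array, the median level of the 7 complement genes above the sham mean was 1.90, 2.71 and 2.52 (log2) on tamoxifen overload replicates 1, 2 and 3 and 1.91 and 1.71 on vehicle overload replicates 1 and 2. The macrophage markers stood at 2.73, 3.27 and 2.98 and at 2.04 and 2.41 on the same arrays. The fibroblast and fibro-adipogenic progenitor markers stood at 2.07, 1.93 and 2.01 and at 2.005 and 1.89, so the macrophage list was not the only one near the complement genes.

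**Figure D5:**
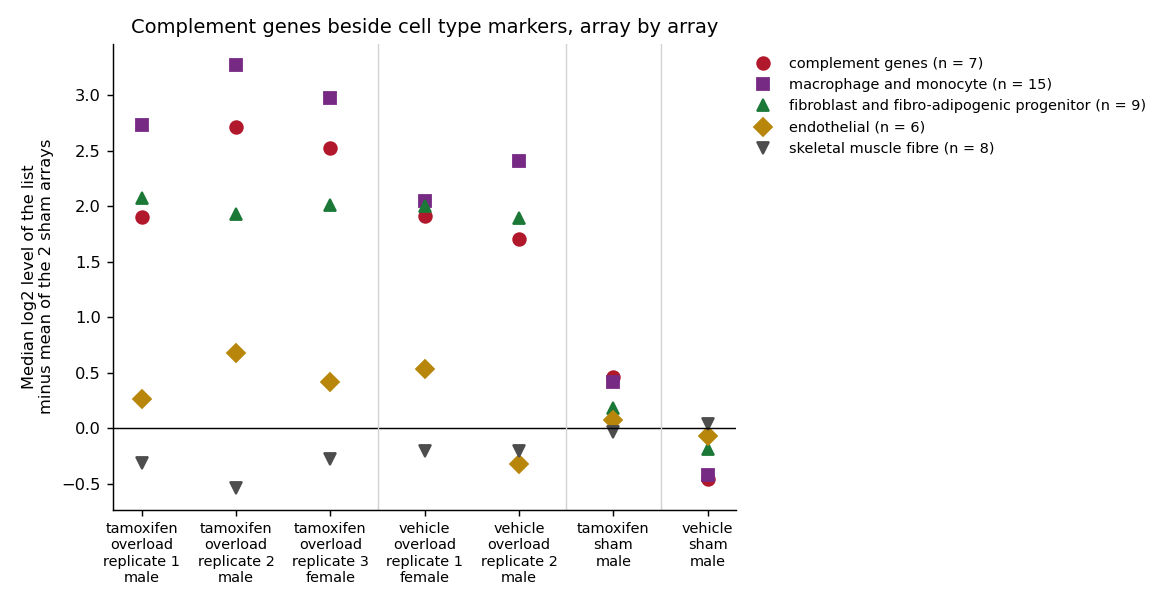
Median log2 level of each list on each array, minus the mean of the 2 sham arrays (y axis), for the 7 complement genes and 4 lists of cell type markers. On the overload arrays the complement genes lie between 1.71 and 2.71 and the macrophage markers between 2.04 and 3.27. The fibroblast and fibro-adipogenic progenitor markers lie between 1.89 and 2.07 there, and the muscle fibre markers below 0.

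Among the 9 markers of fibroblasts and fibro-adipogenic progenitors, 7 rose, with a median of 2.00 and a summed signal of 96004 to 120656 on the overload arrays, against 35552 to 45460 on the sham arrays. Of 6 endothelial markers 1 rose and 1 fell (median 0.12), of 6 neutrophil markers 2 rose (median 1.09) and of 5 mast cell markers 1 rose (median 0.25). Of 7 T, B and natural killer cell markers 0 were called (limma; median -0.08; 1 at an unadjusted p under 0.05), and of 5 adipocyte markers 3 fell (median -1.16). Of 6 satellite cell markers 1 rose (median 0.73). Hepatocyte markers were at or near background: 5 of 6 were above it on no array, Alb was above it on 3 arrays, and their summed signal was 76.9 to 134.1 on the overload arrays, against 103.1 to 163.8 on the sham arrays. Of these 6, 0 were called and 0 had an unadjusted p under 0.05. Of the 8 muscle fibre markers 0 were called (limma; median -0.33), with 1 at an unadjusted p under 0.05.

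The genes whose centred log2 levels over the 7 arrays lay closest to each complement gene were found among 12513 genes above background, by the root-mean-square difference of the profiles. This describes likeness over 7 arrays and shares their arrays and scaling. For C1qa the closest were Ptprc (CD45, the common leukocyte antigen; 0.11), Rassf5 (0.13) and Nnmt (0.13). The median difference from all 12513 genes was 1.08 for C1qa and lay between 1.01 and 1.28 for the complement genes other than Serping1. For C1qb they were the protease gene Ctss (0.14), Fmn1 (0.18) and the matrix gene Fn1 (0.20). For C1qc they were the growth factor gene Tgfb1 (0.10), Tmem119 (0.11) and Med12l (0.12). For C3ar1 they were Pdk3 (0.15), Armcx2 (0.16) and Id2 (0.19), and for Cfb the leukocyte receptor gene Pirb (0.09), Aplnr (0.19) and Ikzf1 (0.19). For Cfp they were Cdkn3 (0.10), Sdc1 (0.11) and AI662270 (0.12), and for Serping1 Zbed6, Orai3 and Eri2 (each 0.07). For Serping1, which changed less, the median over the 12513 genes was 0.48, so its small values are not comparable with those of the others. Among the complement genes themselves C1qa and C1qc were the closest pair, at 0.17. The C1q chains did not stand apart from the others: C1qb lay closer to Cfb (0.24) than to C1qa (0.29) or C1qc (0.32). C1qa also lay closer to Cfp (0.25) than to C1qb. The 6 genes other than Serping1 differed from each other by 0.17 to 0.45, and Serping1 differed from them by 0.63 to 0.91.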

How the data were processed

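Plantaris RNA was measured on 7 Affymetrix mouse expression arrays. Per the labels, 1 µg of total RNA was used for each. The authors deposited 1 linear intensity for every probe set. Leaving out the lowest and highest 2% of values, each array averages 500, so arrays had been scaled as a whole. The submitters' processing notes name Partek; the summary method of probe sets is not stated in what was used here.

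Values were analysed as log2(value + 1). Of all probe sets, 34945 carried a single symbol in the platform annotation and covered 18193 genes. The brightest on average stood for its gene. Another 932 carried several symbols and 9160 carried none, and these were left out. Background was set from 77 chemosensory receptor genes, as the 95th percentile of their means.

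limma 3.58.1 (R 4.3.3) fitted terms for group and sex with a spread that follows intensity. It had 2 residual and 5.95 prior degrees of freedom. Tests were two-sided, with Benjamini-Hochberg adjustment over all genes, and the code was tested on simulated data. The number of arrays limits the precision. By rule the text names the measured members of the set, other complement genes that were called, and for each member the 3 genes nearest in profile. It also names complement genes that were not called and some cell type markers, outside that rule. Members and lists were chosen with earlier results of these data known. Alternatives covered the sex term, males only, normalization (quantile, median centring), a pseudocount of 16, dim genes, the choice of probe sets, the spread estimate, and leaving out the sham arrays or any single array.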

Additional observations from a re-analysis of the deposited data

How the results depend on the processing

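For overload against sham, 0 of the 7 genes were called without the intensity trend and 0 with an ordinary linear model, for both treatments together, with tamoxifen and with vehicle alike. Under the other alternatives, apart from leaving out arrays, 6 or 7 were called for both treatments together and 5 to 7 with each treatment alone. Leaving out each overload array gave 6 to 7 genes for both treatments together; without a sham array only the other treatment's comparison remains, with 7 genes called in either case. Leaving out each array gave 2 to 7 genes with vehicle and 6 to 7 with tamoxifen. It gave 0 to 1 for tamoxifen against vehicle in overload, and 0 each time for the interaction and for female against male. All 343 values of single genes in the overload comparisons stayed positive under the alternatives run. Part of these could not change sign. Dropping the intensity trend, an ordinary linear model, testing every probe set and testing only genes above background left each log2 difference unchanged. Without a sham array, the values for both treatments together repeat those of the other treatment. Leaving out either female array repeats the log2 differences of male arrays alone, because the sex term then fits the remaining female exactly. These settings are therefore not separate checks of the differences. With vehicle, Serping1 lost its call in 10 and Cfp in 9 of 16 alternatives; with tamoxifen, Serping1 lost it in 9 and Cfp in 4 of 16. The interaction turned positive for C1qc after quantile normalization (0.09), median centring (0.004) and without tamoxifen overload replicate 1 (0.158) or vehicle overload replicate 2 (0.031), for C3ar1 after quantile normalization (0.066) and without the same 2 arrays (0.229 and 0.435), and for Cfp with the mean of its probe sets (0.166); leaving out each array gave -0.188 to 0.158 for C1qc and -0.426 to 0.435 for C3ar1, and the cause was not tested. Quantile normalization moved the median of all genes for overload against sham by -0.125 and median centring by -0.292, which turned 2678 higher and 1485 lower calls over all genes into 1738 and 2713; the median of the complement genes was 1.93 and 1.68 in these fits. Over all genes 1428 were called higher and 496 lower without vehicle overload replicate 2. No paired analysis was possible because the labels give the groups no shared replicate numbers.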
